A study of Mus musculus with 6 samples.

Results

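Ribosome biogenesis and nucleolar factors are the proteins that build ribosomes in the nucleolus, and 48 genes for them were followed among the 25407 gene rows measured in this series. The 48 were taken by gene symbol, every symbol had a row, and where a symbol had several rows the one with the highest mean count would have been used. The treated group comprised 3 libraries from CT26.WT, a line of mouse colon carcinoma cells, given Cu2O@AuMn@HA (by its name a particle of copper oxide, gold and manganese), NaHS, which releases hydrogen sulfide, and NIR, light in the near infrared. The control group comprised 3 libraries from the same line. The sources used here give no further detail of the control cells, doses, exposure times or time of harvest, so particle, NaHS and light cannot be told apart. Nothing says that the libraries of a group came from separate cultures, so the p-values speak only of variation among these libraries, and part or all of that may be technical.

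Ribosomes begin as a long precursor RNA that RNA polymerase I copies from ribosomal DNA. Small nucleolar ribonucleoproteins (snoRNPs) modify this RNA, box C/D particles by methylation and box H/ACA particles by pseudouridylation, while a large assembly called the small subunit processome folds and cleaves its 18S part. Separate sets of factors then build the 40S and 60S subunits and escort them to the cytoplasm. Dividing tumour cells make many ribosomes, and most of these factors are textbook genes of growing cells.

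Totals were 62328377 to 70323604 estimated counts in treated libraries and 71409968 to 81821380 in control libraries. Values are FPKM, which divides a gene's fragments by its length and by the size of the library. Fold changes are log2, treated over control, from edgeR's quasi-likelihood test with a threshold of 0.05 on the adjusted p. All 48 genes passed the filter on low counts. The deposited annotation terms placed 46 of the 48 in the nucleolus. The line's labelled identity was checked against markers: Krt18, a keratin of simple epithelia, stood at 163 ± 9.97 FPKM in treated and 65.4 ± 5.94 in control cells (mean ± SD, n = 3 each), and the mesenchymal filament gene Vim at 1300 and 925. Krt20, an intestinal keratin, went the other way, at 57.5 ± 4.22 FPKM in treated and 90.3 ± 3.00 in control cells. Of 9 line markers tested, 4 rose (Krt8, Krt18, Krt19 and Vim) and 2 fell (Krt7 and Krt20), while the epithelial genes Cdh1 and Epcam were at or near 0 (under 0.05 FPKM in both groups). Of 12 markers of other cell types, 9 had a row, and their summed level ran from 55.0 to 64.6 FPKM in treated and from 27.5 to 28.3 in control libraries. Nearly all of it was Cd68, a lysosomal protein abundant in macrophages, at 61.0 and 27.7 FPKM, while the pan-leukocyte gene Ptprc was at 0.000973 FPKM in treated and 0 in control cells.

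Most of these genes were lower in treated cells. Of the 48, 33 fell, 6 rose and 9 did not pass the test, with a median log2 fold change of −0.84. The 48 were chosen with earlier results of these data known, so these shares are not independent of the data. Among 140 other genes of the pathway, given below, 65 fell and 22 rose, with a median of −0.24. Over all 16212 rows tested, 23.5% fell and 23.0% rose, 46.6% in either direction, with a median of 0.06. A fall of at least 1 on the log2 scale was called for 18 of the 48, against 5.18% of all tested rows. In 32 of the 48 genes every treated library lay below every control library, and in 8 every treated library lay above, against 27.1% and 30.4% of all tested rows. The falls were not shared by the whole set: Npm1, the most abundant of the 48 in treated cells but not in control cells, rose 4.90-fold. In bulk RNA, fewer cells making a transcript and less of it in each cell cannot be told apart.

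**Figure D1:**
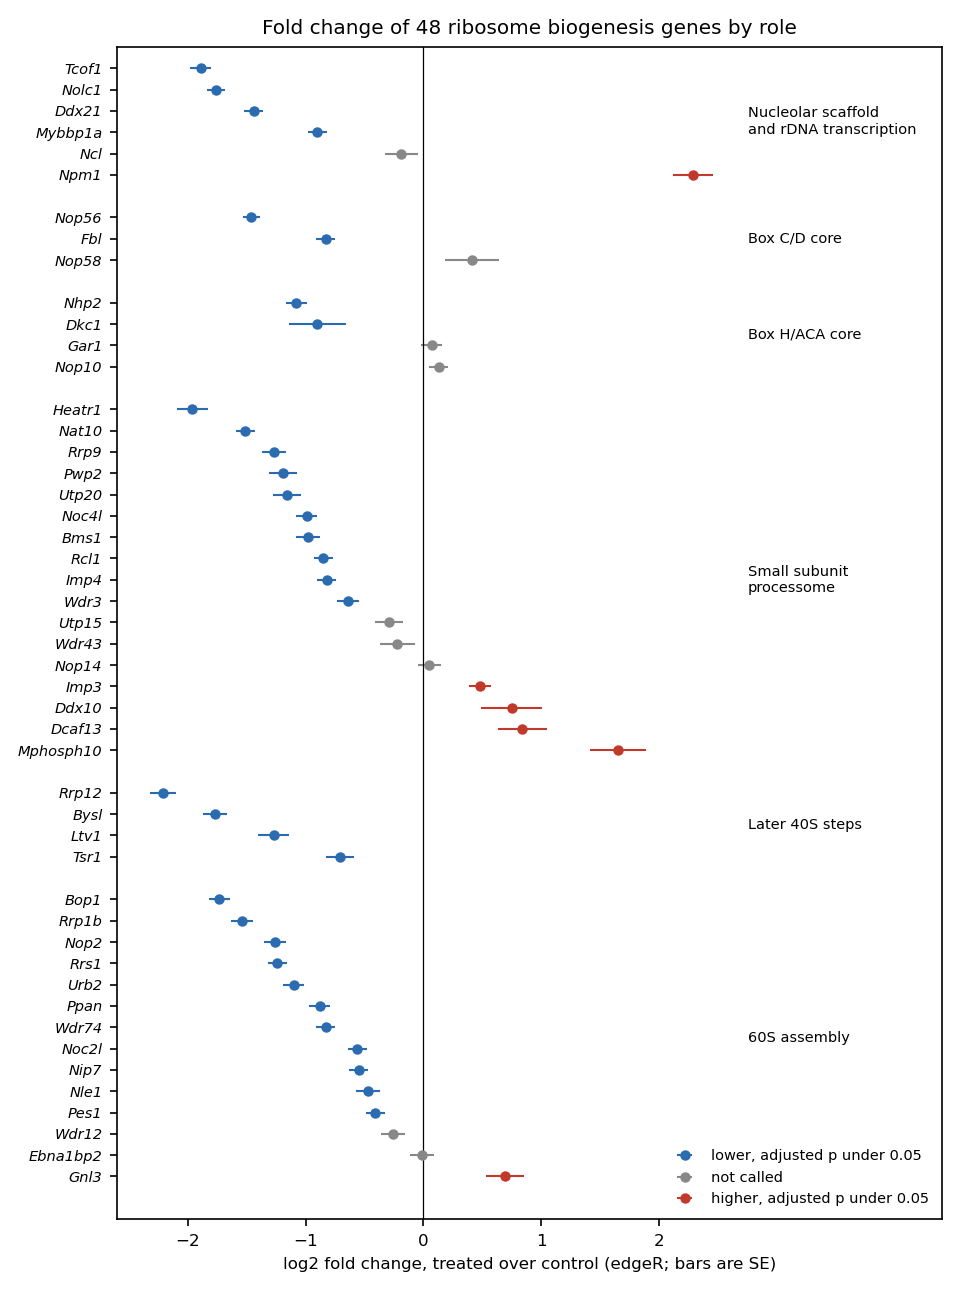
Log2 fold change of each of the 48 genes, treated over control, with its standard error (SE) as a bar, in 6 classes of role. Blue genes fell and red genes rose at an adjusted p under 0.05, and grey genes did not pass; 33 points are blue and 6 are red, with Npm1 at the far right at 2.29 and Rrp12 at the far left at −2.21.

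The summed level of the 48 genes was 949, 1029 and 934 FPKM in treated libraries 1 to 3, against 1336, 1333 and 1333 FPKM in control libraries 1 to 3. Without Npm1 the sums were 761, 760 and 765 FPKM in treated libraries and 1287, 1298 and 1292 FPKM in control libraries. The treated sums were lower in every library, and the libraries of each group differed little once Npm1 was set aside. The median gene stood at 8.18 ± 0.435 FPKM in treated and 16.1 ± 0.567 FPKM in control cells (SD, n = 3 each).

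Promoter sequences were read for these genes because many of them moved together. Windows of 300 bases, 250 before and 50 after the annotated start, were found for 41 of the 48 genes in a table of RefSeq sequences on GRCm38.p6. The genes without one are Bop1, Dcaf13, Fbl, Npm1, Rrp12, Rrs1 and Tcof1. The E-box CACGTG, the letters bound by MYC and related factors, was present in 9 of the 41 genes, or 22.0%, against 11.2% of 10640 tested genes with a window and 8.09% of all 27025 genes with one. By outcome, 8 of 28 genes that fell had it, 0 of 4 that rose and 1 of 9 that did not pass. In Nop2 and Imp4 the E-box lay before the start, and in Ltv1, Utp20, Pes1, Mybbp1a, Tsr1, Nle1 and Wdr43 it lay 3 to 41 bases after it. The motif CCGGAAG, the core letters bound by ETS factors, was present on either strand in 18 of the 41 genes, or 43.9%, against 19.5% of tested genes and 9.93% of all genes. It was in 14 of 28 genes that fell, in 2 of 4 that rose and in 2 of 9 that did not pass. The letters TCTCGCGA were in 3 of the 41, or 7.32%, against 2.40% of tested genes, and the palindromic motif of the factor NRF1 in 0 of 41 against 2.14%. By outcome, TCTCGCGA was in 1 of 28 genes that fell, 0 of 4 that rose and 2 of 9 that did not pass. Motif shares among all tested genes that fell were not computed, so the splits by outcome have no matching background. Each motif was searched on both strands and none contains another. Such matches describe the letters in these windows and do not show binding. The windows of the 41 genes had a median GC content of 59.3%, against 52.7% for all windows. The motif shares were not adjusted for this.

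Stretches of 100 bases before the start are shown for Nop2 and Imp4, which fell and hold an E-box there, for Heatr1 and Nolc1, which fell furthest among genes with CCGGAAG before the start, and for Mphosph10, which rose. They are written 5′ to 3′ on the gene's strand, with the E-box in capitals in the first 2 and CCGGAAG or its reverse complement in capitals in the others. In Nop2 the letters ccggaag also follow the E-box. The Nop2 stretch is chr6:125131776-125131875 on the plus strand, Imp4 is chr1:34439661-34439760 on the plus strand, Heatr1 is chr13:12395275-12395374 on the plus strand, Nolc1 is chr19:46075747-46075846 on the plus strand and Mphosph10 is chr7:64392237-64392336 on the minus strand, all GRCm38.p6.
Nop2: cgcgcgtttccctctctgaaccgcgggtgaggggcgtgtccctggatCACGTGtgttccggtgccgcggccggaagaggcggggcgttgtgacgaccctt
Imp4: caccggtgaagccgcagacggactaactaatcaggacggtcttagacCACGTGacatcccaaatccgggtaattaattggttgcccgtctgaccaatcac
Heatr1: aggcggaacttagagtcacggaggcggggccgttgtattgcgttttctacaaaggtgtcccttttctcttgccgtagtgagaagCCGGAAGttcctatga
Nolc1: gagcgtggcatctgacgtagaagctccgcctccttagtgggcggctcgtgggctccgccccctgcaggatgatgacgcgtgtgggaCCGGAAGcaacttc
Mphosph10: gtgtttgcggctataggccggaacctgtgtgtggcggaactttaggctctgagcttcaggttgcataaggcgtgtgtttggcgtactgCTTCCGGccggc

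Among the 6 genes of the nucleolar scaffold and of ribosomal DNA transcription, 4 fell, 1 rose and 1 did not pass. For this and the other classes, the shares over all tested rows were 23.5% lower and 23.0% higher. Tcof1 encodes treacle, which couples RNA polymerase I transcription to processing of the precursor RNA. It stood at 8.68, 7.38 and 8.29 FPKM in treated libraries 1 to 3, against 28.5, 30.9 and 28.6 FPKM in control libraries 1 to 3. Every treated library lay far below every control library, a log2 fold change of −1.89 ± 0.09 (SE, adjusted p = 9.61e-07). Nolc1, a partner of treacle that also chaperones snoRNPs, averaged 18.7 ± 1.24 FPKM in treated and 61.7 ± 1.28 FPKM in control cells, a log2 fold change of −1.76 ± 0.08. Ddx21, a helicase that acts on both ribosomal DNA transcription and snoRNAs, fell by 1.44 ± 0.08 on the log2 scale, and Mybbp1a, a nucleolar repressor of polymerase I transcription, by 0.90 ± 0.08.

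Npm1 encodes nucleophosmin, the chaperone that forms the outer, granular layer of the nucleolus. It stood at 188, 269 and 169 FPKM in treated libraries 1 to 3, against 48.6, 34.9 and 41.1 FPKM in control libraries 1 to 3. The groups were far apart, and treated library 2 was the highest and control library 2 the lowest. The log2 fold change was 2.29 ± 0.17 (adjusted p = 5.95e-06), and it ran from 1.86 to 2.40 over 20 alternative analyses, passing in all of them. Npm1 has processed copies elsewhere in the genome, and how reads shared with them were counted is not given in the sources used here. Ncl encodes nucleolin, which binds nascent precursor RNA. It stood at 19.8, 24.8 and 15.6 FPKM in treated and at 24.8, 19.0 and 23.3 FPKM in control libraries, so the groups overlapped and the test was not passed (−0.19 ± 0.14, adjusted p = 0.302). Ncl was called lower without treated library 2, at −0.38 (adjusted p = 0.0345), and with a correction for GC content, at −0.58 (adjusted p = 4.91e-05). The log2 ratio of Npm1 to Ncl, both per length, was 3.37 ± 0.11 in treated and 0.89 ± 0.08 in control cells (SD, n = 3 each).

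The core proteins of box C/D snoRNPs did not move alike. Nop56 stood at 21.5, 22.6 and 20.4 FPKM in treated libraries, against 62.1, 54.3 and 56.4 FPKM in control libraries. It was lower in every treated library, with a log2 fold change of −1.46 ± 0.07 (adjusted p = 1.17e-06). Fbl, fibrillarin, the methyltransferase of the particle, stood at 45.9, 43.75 and 46.99 FPKM in treated and 77.2, 80.5 and 79.7 FPKM in control libraries, and fell by 0.83 ± 0.08 on the log2 scale (adjusted p = 2.43e-05). Nop58, the partner of Nop56 in the particle, was measured at far lower levels, 2.39, 4.03 and 2.18 FPKM in treated and 2.54, 1.56 and 2.22 FPKM in control libraries. Its groups overlapped and it did not pass (0.41 ± 0.23, adjusted p = 0.167). With the GC correction its value was −0.16, also not called (adjusted p = 0.325). The log2 ratio of Nop58 to Nop56 was −2.96 ± 0.41 in treated and −4.80 ± 0.28 in control cells (SD, n = 3 each), with no overlap.

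The box H/ACA core genes divided in the same way, with 2 lower and 2 not called. Nhp2, a small RNA-binding core protein, stood at 47.1, 47.1 and 54.3 FPKM in treated libraries, against 104.8, 98.9 and 103 FPKM in control libraries. All treated values were near one another and well below control, a log2 fold change of −1.08 ± 0.09 (adjusted p = 1.03e-05). Dkc1, dyskerin, the pseudouridine synthase, stood at 1.73, 2.59 and 1.58 FPKM in treated and 4.74, 2.44 and 3.66 FPKM in control libraries. It fell by 0.90 ± 0.24 (adjusted p = 0.0125), but treated library 2 lay above control library 2. The call was lost without treated library 1 (−0.82, adjusted p = 0.0557) or treated library 3 (−0.79, adjusted p = 0.0598), and in limma with every row above 0 (−0.62, adjusted p = 0.102). Gar1, which completes the particle, stood at 17.6, 16.9 and 16.7 FPKM in treated and 16.1, 16.0 and 15.3 FPKM in control libraries (0.07 ± 0.09, adjusted p = 0.512). Nop10, its smallest core protein, stood at 35.1, 36.2 and 33.5 FPKM in treated and 31.4, 31.1 and 30.8 FPKM in control libraries (0.13 ± 0.08, adjusted p = 0.196). Both were slightly higher in every treated library without passing. Nop10 passed with library totals only, at 0.21 (adjusted p = 0.0422), and in limma, at 0.16 to 0.17, and Gar1 passed with the GC correction, at 0.20 (adjusted p = 0.0415).

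Of 17 genes of the small subunit processome and its helpers, 10 fell, 4 rose and 3 did not pass, with a median of −0.82. Heatr1, the large scaffold protein known as Utp10 in yeast, stood at 0.730, 0.813 and 0.663 FPKM in treated libraries, against 2.73, 2.60 and 3.06 FPKM in control libraries. It was low in both groups and lower in every treated library, a log2 fold change of −1.96 ± 0.13 (adjusted p = 3.86e-06). In limma with a pseudocount of 1, which shrinks changes of genes this low, its value was −1.13. Nat10, the acetyltransferase that makes acetylcytidine in 18S RNA, averaged 3.98 ± 0.239 FPKM in treated and 11.1 ± 0.300 FPKM in control cells (−1.51 ± 0.08). Rrp9, the U3 snoRNP protein, fell by 1.27 ± 0.10, and Pwp2, a subunit of the UTP-B module, by 1.19 ± 0.12. Utp20, a giant repeat protein, fell by 1.16 ± 0.12, Noc4l, a partner of Nop14, by 0.99 ± 0.09, and Wdr3, a second UTP-B subunit, by 0.64 ± 0.09.

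Partners within the processome moved apart or together depending on the complex. Mphosph10, Imp3 and Imp4 form a 3-protein complex that binds the U3 RNA. Mphosph10 stood at 3.13, 4.87 and 2.81 FPKM in treated libraries, against 1.35, 0.845 and 1.15 FPKM in control libraries, and rose by a log2 fold change of 1.65 ± 0.24 (adjusted p = 0.000332). Imp3 stood at 83.9, 87.5 and 87.3 FPKM in treated and 56.0, 64.1 and 61.0 FPKM in control libraries, and rose by 0.48 ± 0.09 (adjusted p = 0.00146). Imp4 went the other way, averaging 4.75 ± 0.343 FPKM in treated and 8.20 ± 0.398 FPKM in control cells (−0.82 ± 0.08, adjusted p = 2.92e-05). All 3 passed in the same direction in 20 alternative analyses. The log2 ratio of Imp3 to Imp4 was 4.18 ± 0.14 in treated and 2.88 ± 0.16 in control cells, and that of Mphosph10 to Imp4 was −0.44 ± 0.48 and −2.90 ± 0.30 (treated and control, SD, n = 3 each). By contrast, Bms1, a GTPase, and Rcl1, its binding partner, fell by 0.98 ± 0.10 and 0.85 ± 0.08. Their log2 ratio was −1.18 ± 0.15 in treated and −1.04 ± 0.07 in control cells, and the groups overlapped. Genes of a pair can differ in GC content, and the difference of their fitted log2 fold changes moved by over 1.5 times with the GC correction in 4 of the 10 pairs. It was 0.53 with and 1.24 without the correction for Nop58 to Fbl, 1.20 and 1.87 for Nop58 to Nop56, −0.75 and −1.47 for Bop1 to Wdr12, and −0.22 and −0.14 for Bms1 to Rcl1. No pair changed sign.

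**Figure D2:**
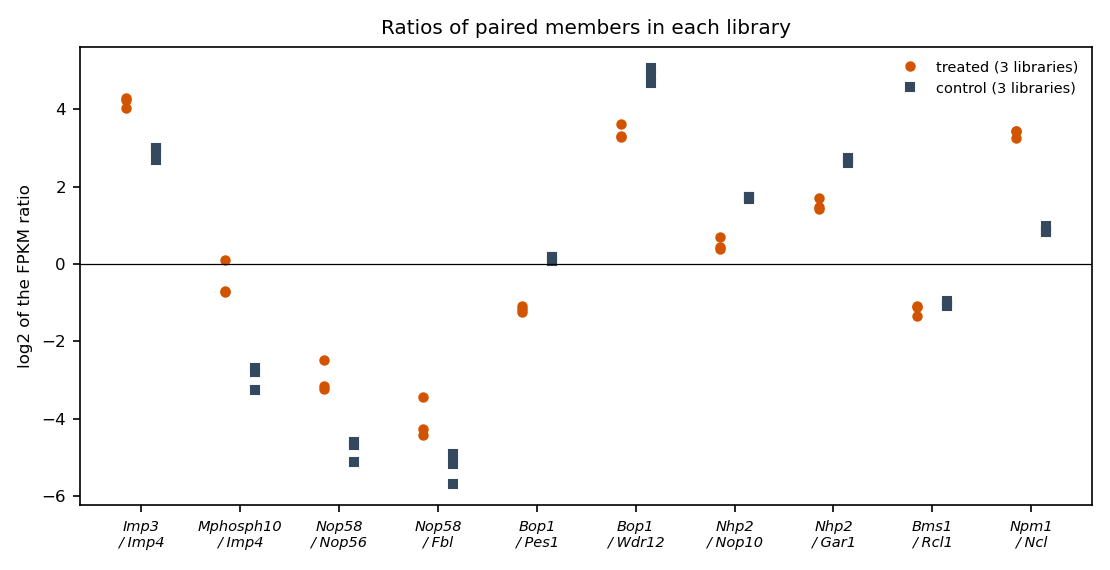
Log2 of the ratio of FPKM values of paired genes in each library, treated on the left of each pair and control on the right, 3 libraries each. A ratio does not depend on the total to which a library is scaled, but it can move with GC content. It separated the groups in every pair shown except Bms1 to Rcl1. The pairs were picked after their values were seen, so no test was made.

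The remaining processome genes that rose, Dcaf13 and Ddx10, rested on less. Dcaf13, the counterpart of yeast Sof1, stood at 2.58, 3.38 and 2.35 FPKM in treated and 2.03, 1.02 and 1.501 FPKM in control libraries (0.84 ± 0.21, adjusted p = 0.0092). The call was lost in 4 of 20 alternatives, among them without treated library 2 (0.66, adjusted p = 0.0506) and with the GC correction (0.19, adjusted p = 0.263). Ddx10, a helicase known as Dbp4 in yeast, stood at 2.41, 3.67 and 2.21 FPKM in treated and 1.24, 1.38 and 2.18 FPKM in control libraries (0.75 ± 0.26, adjusted p = 0.036). Control library 3 lay almost at the level of treated library 3. The call was lost in 9 of 20 alternatives: without control library 1 (0.57, adjusted p = 0.122), control library 2 (0.66, 0.111), treated library 1 (0.84, 0.0561) or treated library 2 (0.49, 0.165), with the GC correction (0.35, 0.228), and in 4 others.

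Wdr43, Utp15 and Nop14 did not pass. Wdr43 and Utp15, like Heatr1, are subunits of the UTP-A module, which in yeast links processing to ribosomal DNA transcription. Wdr43 stood at 4.01, 5.07 and 3.11 FPKM in treated and 4.90, 4.27 and 4.63 FPKM in control libraries (−0.22 ± 0.15, adjusted p = 0.280), and Utp15 at 3.09, 3.48 and 2.53 FPKM in treated and 3.89, 3.42 and 3.53 FPKM in control libraries (−0.29 ± 0.12, adjusted p = 0.0792). Treated library 2 lay above all 3 control libraries for Wdr43 and within the control range for Utp15, while the other treated libraries lay below every control library. Without treated library 2, Wdr43 was called at −0.41 (adjusted p = 0.030) and Utp15 at −0.41 (adjusted p = 0.0261). Nop14, which joins the processome with Noc4l, stood at 14.8, 15.1 and 11.4 FPKM in treated and 13.9, 12.3 and 12.6 FPKM in control libraries (0.05 ± 0.10, adjusted p = 0.707).

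All 4 genes of later 40S maturation fell, while of 9 other 40S maturation genes given below 2 fell and 3 rose, with a median of 0.22. Rrp12, which in yeast helps export both subunits from the nucleus, had the most negative fold change of the 48. It stood at 3.92, 3.24 and 3.38 FPKM in treated libraries, against 14.7, 17.1 and 15.6 FPKM in control libraries, a log2 fold change of −2.21 ± 0.11 (adjusted p = 1.03e-06), or 4.62-fold lower. Bysl, bystin, the counterpart of yeast Enp1, stood at 8.29, 7.20 and 8.47 FPKM in treated and 25.8, 28.4 and 25.7 FPKM in control libraries. Its groups were also wide apart, at −1.77 ± 0.10 (adjusted p = 1.81e-06). Ltv1, an assembly factor shed from the precursor in the cytoplasm, fell by 1.27 ± 0.13, and Tsr1, a GTPase-like factor of the same particle, by 0.71 ± 0.12.

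Of 14 genes of 60S assembly, 11 fell, 1 rose and 2 did not pass, with a median of −0.69. Bop1, Pes1 and Wdr12 make up the PeBoW complex, which is needed to process the precursor of 28S RNA. Bop1 stood at 21.1, 22.4 and 23.7 FPKM in treated libraries, against 72.2, 74.8 and 70.2 FPKM in control libraries, a log2 fold change of −1.73 ± 0.09 (adjusted p = 1.09e-06). Pes1 averaged 50.1 ± 2.86 FPKM in treated and 65.1 ± 1.51 FPKM in control cells, a smaller fall of 0.41 ± 0.08 (adjusted p = 0.00239). Wdr12 stood at 2.15, 2.27 and 1.94 FPKM in treated and 2.83, 2.22 and 2.39 FPKM in control libraries. Its groups overlapped, at −0.26 ± 0.10 (adjusted p = 0.0643), and it was called without control library 2, at −0.33 (adjusted p = 0.0456), and with the GC correction, at −0.87 (adjusted p = 0.000133). The log2 ratio of Bop1 to Pes1 was −1.16 ± 0.08 in treated and 0.15 ± 0.06 in control cells.

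Nop2, a methyltransferase of 28S RNA, was the most abundant gene of 60S assembly in control cells, while in treated cells Pes1 and Noc2l were above it, at 50.1 and 49.4 FPKM against 38.6 FPKM for Nop2. It stood at 38.8, 36.8 and 40.2 FPKM in treated libraries, against 84.5, 94.6 and 92.0 FPKM in control libraries, a log2 fold change of −1.26 ± 0.09 (adjusted p = 4.68e-06). Rrp1b, which also recruits a phosphatase to the nucleolus, fell by 1.54 ± 0.09. Rrs1, which helps bring the 5S particle into the precursor, fell by 1.24 ± 0.08, and Urb2, an early 60S factor in yeast, by 1.10 ± 0.09. Ppan, Wdr74, Noc2l, Nip7 and Nle1 fell by 0.47 to 0.88 on the log2 scale, all without overlap between groups. Ebna1bp2, the partner of Rrs1 in yeast, stood at 13.6, 15.7 and 13.7 FPKM in treated and 16.3, 12.8 and 13.4 FPKM in control libraries and did not pass (−0.01 ± 0.10, adjusted p = 0.935). Gnl3, nucleostemin, a GTPase that shuttles between nucleolus and nucleoplasm, stood at 3.33, 3.78 and 2.61 FPKM in treated and 2.32, 1.65 and 1.89 FPKM in control libraries. It rose in every treated library over every control library (0.69 ± 0.16, adjusted p = 0.0051), and passed in all 20 alternatives, at 0.49 to 0.80.

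**Figure D3:**
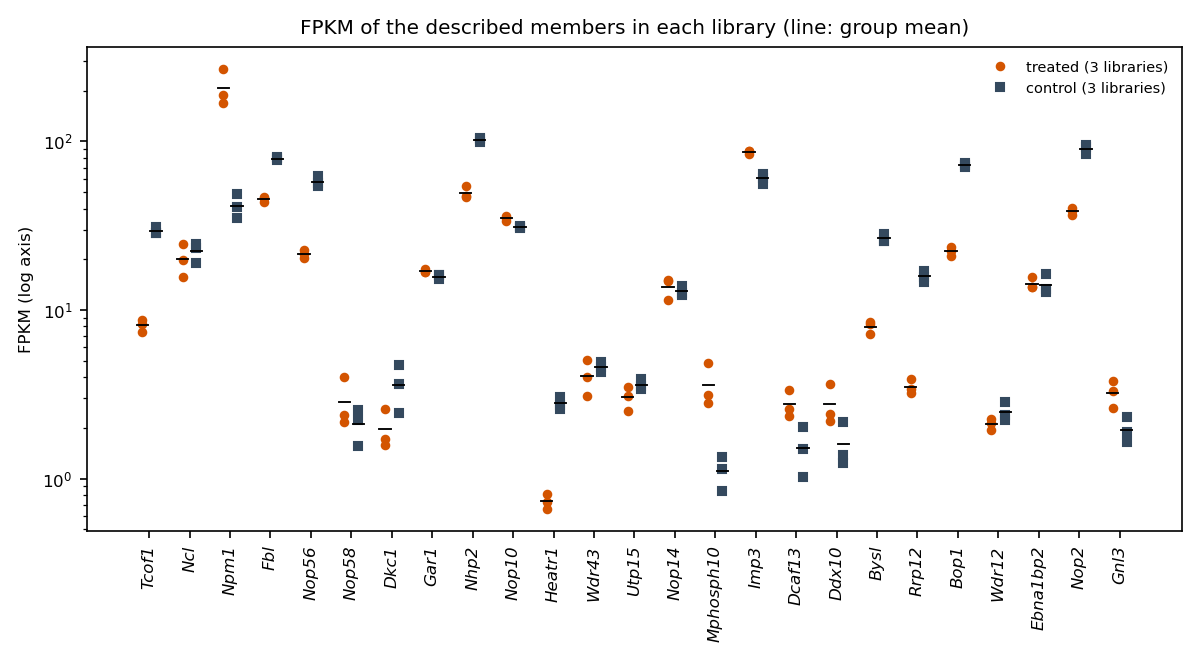
FPKM (log axis) of the described genes in each treated (left, circles) and control (right, squares) library, with the group mean as a line. Rrp12, Tcof1, Bop1, Bysl and Heatr1 show clear gaps below control, Npm1 and Mphosph10 show clear gaps above it, and Ncl, Nop58, Dkc1, Wdr43, Utp15, Nop14, Wdr12 and Ebna1bp2 overlap, of which Dkc1 was called lower.

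The direction of a gene went with the GC content of its transcript. GC content was taken from the longest GENCODE M21 transcript and was known for all 48 genes. Its median was 52.1% for the genes that fell, 42.6% for those that rose and 45.4% for those that did not pass. Of 24 genes at 50% GC or more, 22 fell and 1, Imp3, rose. Of 15 genes from 45 to 50%, 10 fell and 1 rose. Of 9 genes below 45%, 1 fell and 4 rose. Across the 48 genes, which are not independent replicates, Spearman's rho between fold change and GC content was −0.49, and over all tested rows with a transcript it was −0.27. Among all tested rows below 45% GC, 300 of 3653 fell and 1423 rose, and at 50% or more 2497 of 7950 fell and 1327 rose.

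Libraries of the same group also differed by GC content. The Spearman correlation between GC content and a gene's deviation from its group mean, over all tested rows, was 0.08, −0.55 and 0.49 in treated libraries 1 to 3 and −0.29, 0.38 and −0.12 in control libraries 1 to 3. The 9 low-GC genes of the set stood 0.38 above their group mean (median, log2) in treated library 2 and 0.24 below it in treated library 3. With a GC correction per library, 37 of the 48 fell and 5 rose, against 26.2% and 23.6% of 15760 rows (49.8% in either direction), and the median was −0.73. Ncl, Wdr43, Utp15 and Wdr12 were then called lower and Gar1 higher, while Dcaf13 and Ddx10 no longer passed. Npm1 and Mphosph10 stayed higher, at 1.87 and 1.08 (adjusted p = 5.43e-07 and 0.00018). After the correction Spearman's rho was −0.34 across the 48 genes. The correction was fitted to each library's deviation from the mean over all libraries, so it also took out GC trends between treated and control. Whether such a trend came from the treatment or from library making cannot be told apart here. The correction used the GC content of the longest transcript, which need not be the one expressed in these cells. That transcript had 10012 bases for Wdr12, 9507 for Nop58, 8202 for Ncl and 6477 for Dcaf13. Other transcripts were not tested.

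**Figure D4:**
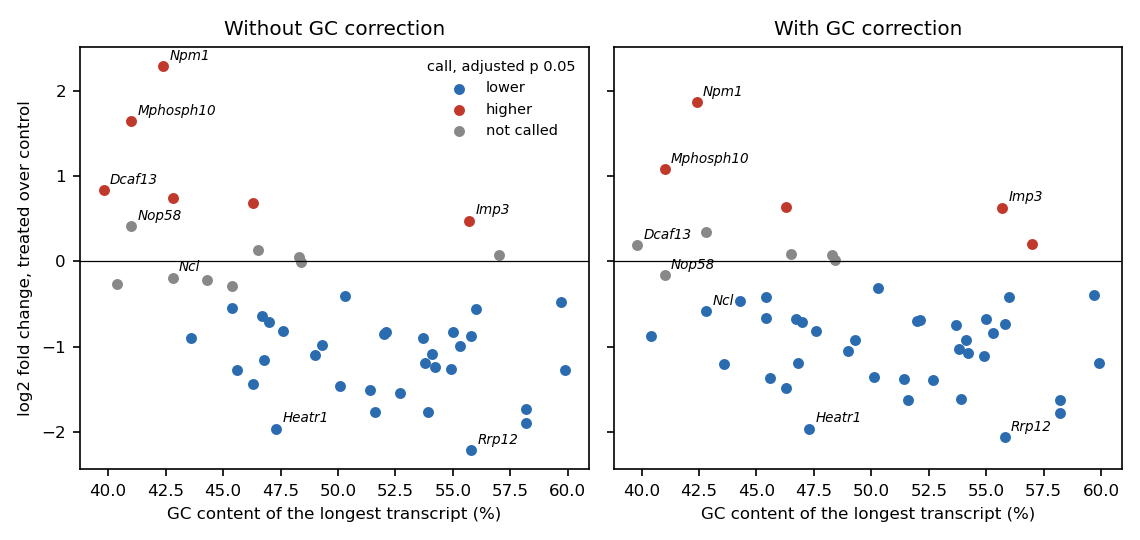
Log2 fold change of the 48 genes, treated over control, against the GC content of the longest transcript in percent, without (left) and with (right) a GC correction per library. Blue, red and grey mark lower, higher and not called. The genes that rose lie at the left of the first panel, except Imp3 at 55.7% GC and Gnl3 at 46.3%. In the second, Ncl joins the genes that fell and Npm1 and Mphosph10 remain above 0.

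Of 8 ribosomal RNA rows looked for, 1 was in the table. This row, Rn18s-rs5, is named as related in sequence to 18S ribosomal RNA and stood at 1145, 1041 and 1148 FPKM in treated libraries, against 18505, 20147 and 19387 FPKM in control libraries, a log2 fold change of −4.16 ± 0.08 (adjusted p = 5.88e-09). It took 0.223% ± 0.0118 of counts in treated and 3.76% ± 0.160 in control libraries (SD, n = 3 each). The libraries were selected for poly(A) RNA, so this level is not that of mature ribosomal RNA in the cells. Why it differed between the groups was not tested. An alternative chosen after the data were seen left out every row typed as ribosomal RNA, mitochondrial ones included, and used library totals as the only scaling. There, 33 of the 48 genes fell and 6 rose. Genes of the mitochondrial chromosome took 2.54% ± 0.796 of counts in treated and 1.51% ± 0.316 in control libraries.

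Other genes of the pathway were taken from lists made from general knowledge. The lists were chosen with earlier results of these data known, so they are not independent of these data. In each list the gene with the smallest p in each direction is named, which need not have the largest change. Of 147 listed, 140 had a row and were tested, of which 65 fell and 22 rose, with a median of −0.24. Over all tested rows 23.5% fell and 23.0% rose. Of 37 other processome factors 20 fell including the helicase gene Dhx37 at −1.62 ± 0.11, and 7 rose including the nuclease gene Fcf1 at 1.81 ± 0.24. Fcf1 stood at 19.3, 26.0 and 18.7 FPKM in treated and 8.21, 3.93 and 5.68 FPKM in control libraries. Of 52 other 60S factors 25 fell including Heatr3, which delivers a ribosomal protein of the 5S particle, at −1.25 ± 0.08, and 5 rose including Zfp622, a cytoplasmic 60S factor, at 0.59 ± 0.08. The rise of Zfp622 was not called with the GC correction (0.29, adjusted p = 0.107).

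Of 15 genes of RNA polymerase I and its factors, 8 fell including the largest subunit gene Polr1a at −1.46 ± 0.08, and 3 rose including Polr1d, shared with RNA polymerase III, at 0.60 ± 0.08. Polr1a stood at 4.87, 4.57 and 4.35 FPKM in treated libraries, against 11.3, 12.8 and 12.7 FPKM in control libraries. Of 15 genes of the nuclear RNA exosome, 5 fell including Exosc2 at −0.93 ± 0.08, and 2 rose including Mphosph6 at 0.54 ± 0.12. Of 8 snoRNP assembly genes 4 fell including the ATPase gene Ruvbl1 at −0.65 ± 0.08, and Nufip1 rose at 0.48 ± 0.18 (adjusted p = 0.0486, or 0.0711 with the GC correction). Of 9 other 40S maturation genes, 2 fell including Tsr2 at −0.66 ± 0.09, and 3 rose including the kinase gene Riok3 at 0.90 ± 0.14. Of 4 chaperones of ribosomal proteins, Bccip fell by 0.36 ± 0.12 and Pdcd2 rose by 0.55 ± 0.10. Among 800 other tested rows with the nucleolus term, 275 fell and 217 rose, with a median of −0.05. All these counts stand against 23.5% lower and 23.0% higher over all tested rows, and several lists hold few genes.

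The ribosomal proteins that these factors assemble went the other way. Of 79 cytosolic ribosomal protein genes, 61 rose and 6 fell, against 23.0% and 23.5% of all tested rows, with a median of 0.56. In every alternative analysis at least 57 rose, with a median of 0.52 to 0.63. Rpl37, with the smallest p among those that rose, stood at 262, 255 and 258 FPKM in treated and 89.5, 79.4 and 83.1 FPKM in control libraries (1.58 ± 0.07, adjusted p = 8.64e-07). Rps18, with the smallest p among those that fell, averaged 58.0 ± 3.11 FPKM in treated and 79.5 ± 4.66 FPKM in control cells (−0.49 ± 0.08). The number that fell was 3 without treated library 1 or control library 3. Ribosomal protein genes have many processed copies, and reads shared with those are uncertain.

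**Figure D5:**
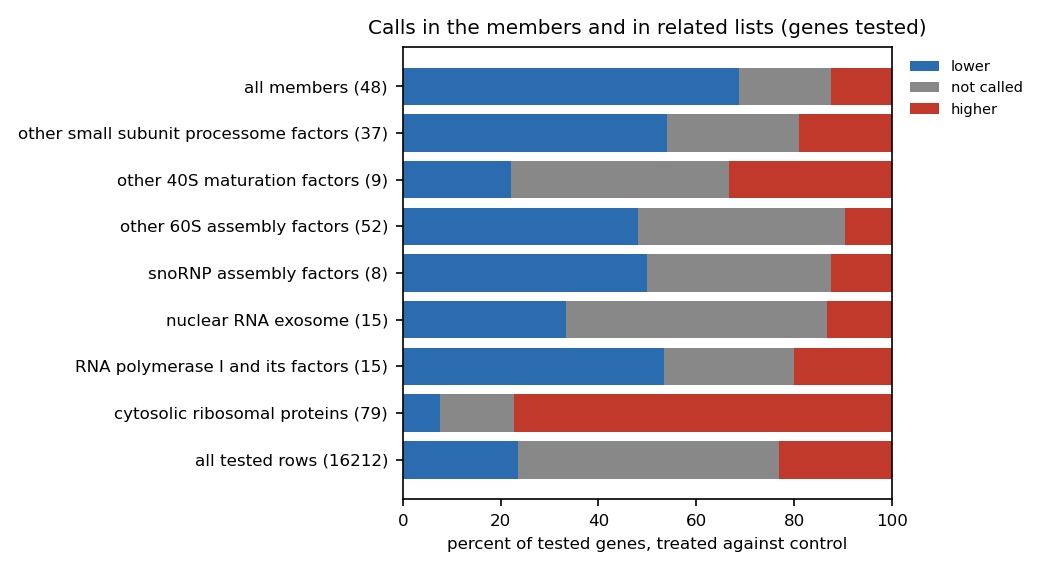
Percent of tested genes that were lower (blue), not called (grey) or higher (red) in treated against control cells, for the 48 genes, the related lists and all tested rows, with the number tested in brackets. The 48 genes hold 33 lower and 6 higher, and the cytosolic ribosomal protein genes 6 lower and 61 higher.

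Some rows are less certain because genes share a locus. Of the 48, 21 overlapped another row of the deposited table, 18 on the opposite strand and 7 on the same strand. The same-strand rows, which include small nucleolar RNA genes in Ncl, Nop56, Nop58 and Gnl3, had a mean of at most 0.394 FPKM in either group. Among opposite-strand rows, Idh3b beside Nop56 averaged 46.7 FPKM in treated and 44.9 FPKM in control cells, against 21.5 and 57.6 for Nop56. Ccnd3 beside Bysl averaged 23.4 and 25.5, against 7.99 and 26.6 for Bysl. Lgals8 beside Heatr1 averaged 7.41 and 5.29, above Heatr1 itself at 0.735 and 2.80. Mpp1 beside Dkc1 averaged 14.5 FPKM in treated and 14.9 FPKM in control cells, above Dkc1 itself at 1.97 and 3.62. Whether the counting used the strand is not given in the sources used here, and the part of these neighbours was not tested.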

How the data were processed

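RNA of 6 CT26.WT libraries (3 treated, 3 control, groups and numbers from the sample titles) was selected with oligo-dT beads, made into dUTP-marked libraries and sequenced as pairs, per the labels' protocols. Each gene has FPKM values and counts for every library, both computed by the authors, per the file headers. The deposited counts are treated as estimated counts although they are whole: dividing them by FPKM gave nearly 1 constant per gene (median CV 0.0322% over 9971 rows) and multiples of 4 were too frequent (4054 values of 4, against 2604 of 3 and 2475 of 5). Software listed in the submitters' processing notes comprises StringTie 2.1.6, HISAT2 2.2.1, cutadapt 1.9, edgeR and DESeq2, with no roles. Neither the genome build nor the strand setting is given in those notes or in the labels.

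The main test was edgeR 4.0.16 (R 4.3.3) quasi-likelihood on the estimated counts, with its default filter, TMM scaling, 2-sided p-values and Benjamini-Hochberg adjustment over 16212 rows. The SE was obtained by dividing the size of the log2 fold change by the root of its F statistic. Simulated data for treated against control held 16212 rows. Of these, 74% of 100 genes with a 2-fold change and 96% of 100 with a 4-fold change were called. The changed genes were drawn among rows with a mean CPM of at least 1, and 14 unchanged rows were called too. In these data 46.6% of rows were called, far more than were changed in the simulation. It also held no GC differences between libraries, so its rates need not hold here. Alternatives were DESeq2 1.42.0, limma 3.58.1 on log2(FPKM + 1), other scalings and filters, a loess GC correction (span 0.4), a replicate block, and left-out libraries. The members, roles and lists were chosen with earlier results of these data known. Genes given in every library are those with the most negative fold change or highest mean FPKM in a role class, those that rose or did not pass, and those whose groups overlap. Of the other lists, the gene with the smallest p in each direction is named.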

Additional observations from a re-analysis of the deposited data

How the results depend on the processing

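Over 20 alternatives, 32 of the 33 genes that fell and 4 of the 6 that rose kept their call in every one; the exceptions were Dkc1, Dcaf13 and Ddx10. The number that fell ran from 32 to 37 and the number that rose from 4 to 7, within 1.5 times of 33 and 6, and the median log2 fold change from −0.89 to −0.73. Leaving out 1 library in turn gave 32 to 36 genes that fell, 4 to 6 that rose, medians of −0.89 to −0.83, 6073 to 7264 rows called over the whole table, 62 to 68 other pathway genes that fell and 3 to 8 ribosomal protein genes that fell. The last number was 2 in limma with every row above 0 and 3 with the GC correction and replicate block, against 6.

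Nothing in the labels ties same-numbered libraries to each other. Their deviations correlated at 0.040, −0.103 and 0.006, which with 3 libraries per group cannot settle whether they were paired. With the replicate block 6275 rows were called, against 7548, and 33 of the 48 genes fell and 6 rose. No alternative changed the sign of a called gene. Among genes not called, Nop58 was −0.16 with the GC correction, −0.17 with the block added and −0.06 without both libraries numbered 2, Nop14 was −0.02 without those and −0.03 without treated library 2, and Ebna1bp2 was 0.06 with library totals only, 0.0049 with no filter, 0.02 in limma on log2(FPKM + 1), 0.03 with a pseudocount of 0.1, 0.02 with every row above 0, 0.02 with the GC correction, 0.03 with the block added, 0.0013 with counts divided by 4, 0.02 with protein-coding genes only, 0.01 without ribosomal RNA rows, 0.03 without treated library 1, 0.06 without control library 1, and −0.09 to 0.06 with 1 library left out. Leaving out 1 library gave −0.03 to 0.15 for Nop14. The cause of these changes was not tested. Heatr1, Utp20, Dcaf13, Ddx10, Wdr12, Mphosph10, Nop58, Gnl3 and Dkc1 averaged under 3 FPKM over all libraries, so their values rest on the fewest reads per length.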
